A study of Mus musculus with 4 samples.

Results

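The nuclear receptor gene family was examined in sorted retinal neurons of mice at postnatal day 6. Nuclear receptors are transcription factors with a zinc-finger DNA-binding domain and, in most members, a pocket for a small lipophilic ligand such as a thyroid hormone, a retinoid, a steroid or a sterol. Receptors without a known natural ligand are called orphan receptors, and most members repress or activate their targets by recruiting corepressors or coactivators. In the retina the family is known for setting cone opsin choice (the thyroid hormone receptor gene Thrb) and for roles of Rorb and the Coup-TF genes Nr2f1 and Nr2f2 in the formation of amacrine cells.

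The 42 family members were chosen by gene symbol, without use of measured values. Of these, 41 had at least 1 probe set annotated to that gene alone, 109 probe sets in all, and Nr1h2 was not analysed here. The table held 18193 such genes in all. Each gene was represented by its brightest probe set and was counted as expressed, and tested, if its intensity exceeded the median of the array on at least 2 of the 4 arrays. By this rule 23 receptors were tested, among 11583 genes, and 18 receptors were too dim.

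The 2 groups were MP amacrine cells, sorted as CFP-positive and VC1.1-positive retinal neurons, and MP bipolar cells, sorted as CFP-positive and VC1.1-negative neurons after removal of VC1.1-positive cells on a magnetic column. Most amacrine cells are inhibitory and act on bipolar and ganglion cells, while bipolar cells carry photoreceptor signals to the inner retina. VC1.1 is an antibody used as a marker of amacrine cells. All cells came from the offspring of males with the MP transgene, which marks cells with the fluorescent protein CFP, and females without it, on a mixed C57Bl6 and CD1 background, so no group lacked the transgene. There were 2 samples per group, taken from different litters, and each was a pool of about 1000 cells whose RNA was amplified in 2 rounds and hybridised to 1 Affymetrix array. The comparison asks which receptors separate the CFP-positive amacrine from the CFP-positive bipolar population, and the small number of arrays limits the precision of every value.

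The labelled cell types were checked against marker lists. The amacrine list had 11 tested genes, of which 9 were called in the amacrine direction and 0 in the other, and 4 of the 9 (Tfap2b, Snhg11, Tfap2c and Neurod6) passed the filter through the amacrine arrays alone. Its summed intensity was 7824 to 8451 in MP amacrine and 696 to 731 in MP bipolar samples. The bipolar list had 9 tested genes, of which 7 were called in the bipolar direction and 0 in the other, with sums of 8908 to 9429 in MP amacrine and 22477 to 23347 in MP bipolar samples, while Trpm1 stayed below the filter at 22.4 to 26.7. Isl1 was higher in MP amacrine samples, at 1055 and 925 against 575 and 684, without passing (0.64, adjusted p = 0.0835, limma). Prdm8, the largest part of the bipolar list's sum in MP amacrine samples, had 4600 and 4694 there and 5360 and 5465 in MP bipolar samples and did not pass. Marker lists of other retinal classes gave signal in both sorts. Photoreceptor markers summed to 8226 to 12963 in MP amacrine and 10035 to 11504 in MP bipolar samples, and Müller glia markers to 4279 to 4629 in MP amacrine and 2243 to 2778 in MP bipolar samples. Ganglion cell markers summed to 1928 to 3881 in MP amacrine and 2812 to 3672 in MP bipolar samples, and horizontal cell markers to 841 to 1372 in MP amacrine and 250 to 346 in MP bipolar samples. Most of the ganglion cell sum in MP bipolar samples came from Thy1, at 2462 and 3415. Thy1 gave 806 and 1455 in MP amacrine samples, and the ganglion cell markers Rbpms and Sncg were too dim. Markers of microglia, vessels and red cells summed to 1370 to 3909 in MP amacrine and 550 to 1719 in MP bipolar samples. On all arrays but MP bipolar replicate 2 the largest part came from the microglia gene Ctss. Ctss had 567 and 2665 in MP amacrine and 1003 and 2.27 in MP bipolar samples. The endothelial gene Pecam1 was at 1 to 2.56 on all arrays, while the vessel gene Cdh5 had 50 and 55 in MP amacrine and 38 and 40 in MP bipolar samples. Markers of Notch signalling and dividing progenitors summed to 973 to 1404 in MP amacrine and 304 to 350 in MP bipolar samples. The largest part came from Ccnd1, at 542 and 759 in MP amacrine and 242 and 188 in MP bipolar samples. The division genes Mki67, Top2a and Cdk1 were too dim, at 29.8 to 67.8 in MP amacrine and 10.4 to 37.9 in MP bipolar samples. Each was higher on the MP amacrine arrays, and on MP amacrine replicate 2 alone they exceeded the array median, 47.2. In these pools, fewer cells of a type and less RNA per cell cannot be told apart.

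Of 23 expressed receptors, 3 differed between the 2 populations and 20 did not pass the test. Nr2f2 and Rorb were higher in MP amacrine cells and Rora was higher in MP bipolar cells (limma, adjusted p under 0.05). That is 2 members in the amacrine direction against 6.54% of all tested genes, 1 in the bipolar direction against 6.92%, and 13.0% of the tested members in either direction against 13.5% of all tested genes, so the family as a whole was called about as often as other genes. The median log2 fold change of the 23 was 0.14, against -0.03 over all tested genes, and the median absolute value was 0.34, against 0.26. Fold changes here are MP amacrine minus MP bipolar on the log2(intensity + 16) scale, which understates differences of dim genes. On 14 of 23 members the amacrine arrays did not overlap the bipolar arrays, where 53.3% of all tested genes showed this. With 2 arrays against 2, an exact permutation test of a single gene cannot go below a two-sided p of 0.333, so the limma fit across all genes is the only test given.

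**Figure D1:**
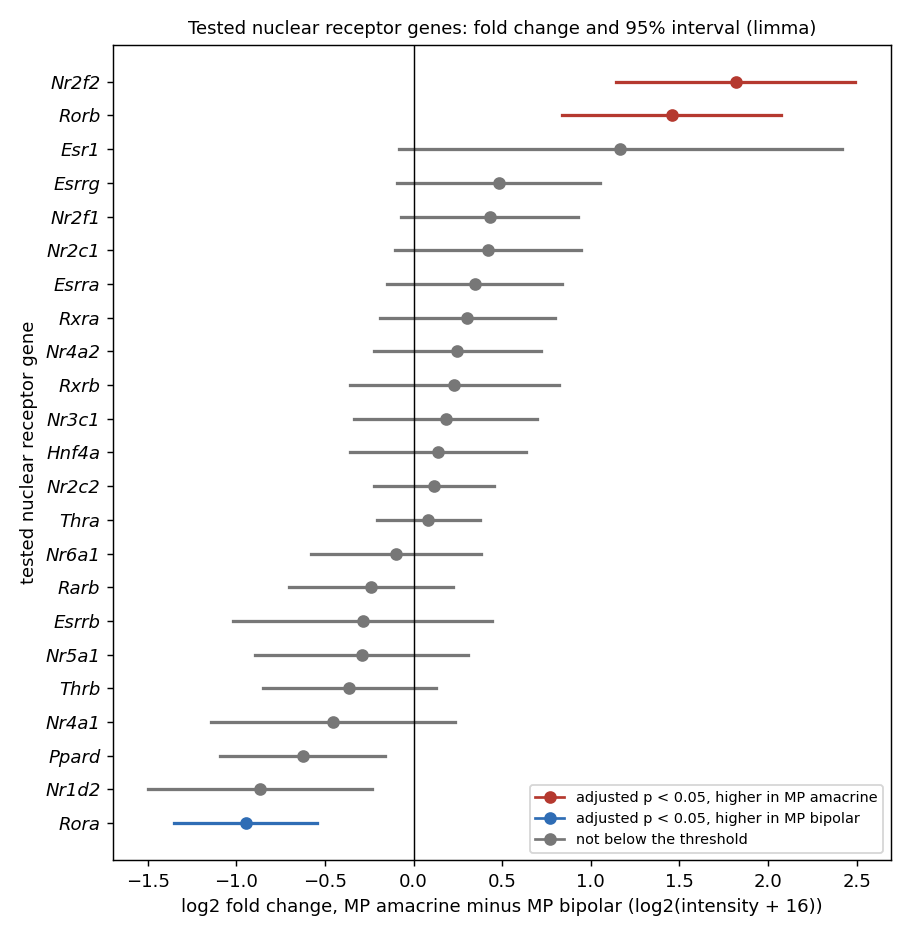
Log2 fold change (MP amacrine minus MP bipolar, log2(intensity + 16)) of the 23 tested receptor genes, with points for estimates and lines for 95% intervals from limma, n = 2 arrays per group. Nr2f2 (1.82) and Rorb (1.46) lie to the right in red, Rora (-0.95) to the left in blue, and the 20 genes in grey did not pass the adjusted threshold.

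Nr2f2, which encodes the orphan receptor Coup-TFII, had the largest difference of the tested members. Its intensities were 172 and 197 on the MP amacrine arrays, against 26.8 and 59.5 on the MP bipolar arrays. The groups did not overlap, and MP bipolar replicate 1 lay below its array median of 45.8. The log2 fold change was 1.82 (SE 0.29, 95% interval 1.14 to 2.49, adjusted p = 0.0046, limma). Among its 6 probe sets, the 3 above the filter all pointed to amacrine cells, with log2 fold changes of 1.82, 2.19 and 1.2. The 2nd brightest had 158 and 165 in MP amacrine samples, against 17.5 and 29.3 in MP bipolar samples. The close relative Nr2f1, which encodes Coup-TFI, gave 514 and 552 in MP amacrine cells and 368 and 416 in MP bipolar cells. These arrays did not overlap either, but the log2 fold change of 0.43 did not pass the test (95% interval -0.07 to 0.93, adjusted p = 0.276, limma). Whether the fold changes of Nr2f1 and Nr2f2 differ from each other was not tested.

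Nr2f6, which encodes a further Coup-TF relative, and Nr2e1, which encodes the retinal progenitor repressor Tlx, were too dim. Nr2f6 gave 57.9 and 43.4 in MP amacrine cells and 31.7 and 31.1 in MP bipolar cells, and only MP amacrine replicate 1 was above its array median. Nr2e1 stayed between 19.5 and 23.3 on all 4 arrays. The 250 bases before the annotated start of Nr2f2 (RefSeq, GRCm38.p6) are shown because it had the largest difference, with 2 matches to the CCAAT box (letters CCAAT, either strand) in capitals. They hold 1 CG dinucleotide, against a median of 6 over 32851 windows of this length, and no match to AGGTCA, the core motif that many receptors bind, which 14% of all windows hold on either strand.
Nr2f2, chr7:70366747-70366996, minus strand: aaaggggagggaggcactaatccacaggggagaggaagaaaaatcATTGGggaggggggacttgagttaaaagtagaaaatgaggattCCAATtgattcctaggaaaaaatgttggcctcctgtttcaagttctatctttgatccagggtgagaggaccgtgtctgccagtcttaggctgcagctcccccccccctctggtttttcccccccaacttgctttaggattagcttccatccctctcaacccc

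Rorb and Rora encode closely related orphan receptors that bind the AGGTCA core after an AT-rich stretch, and they were called in opposite directions. Rorb, known for its part in rod, horizontal and amacrine cell formation, had intensities of 917 and 1215 on the MP amacrine arrays, against 462 and 303 on the MP bipolar arrays. Both amacrine arrays were above both bipolar arrays, with a log2 fold change of 1.46 (SE 0.27, 95% interval 0.84 to 2.07, adjusted p = 0.0089, limma). Its 2nd brightest probe set had 809 and 1412 in MP amacrine and 294 and 152 in MP bipolar cells (log2 fold change 2.25), and its remaining probe set gave 1.02. Without MP bipolar replicate 2, the lower of the bipolar arrays, the log2 fold change of Rorb was 1.16 and the call was lost (adjusted p = 0.0528).

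Rora, which is best known from the cerebellum and also acts in cones, had intensities of 764 and 881 in MP amacrine cells, against 1589 and 1603 in MP bipolar cells. The groups were far apart and the replicates close together, and the log2 fold change was -0.95 (SE 0.17, 95% interval -1.35 to -0.54, adjusted p = 0.0090, limma). Its 7 probe sets above the filter did not all give the same direction: 5 were lower in MP amacrine cells, by -0.53 to -1.23, and 2 had positive values of 0.18 and 0.59. The 2nd brightest had 210 and 186 in MP amacrine cells and 395 and 592 in MP bipolar cells. With all 9 probe sets averaged the log2 fold change was -0.45 (adjusted p = 0.262). The call was also lost without MP bipolar replicate 1 (-0.95, adjusted p = 0.0628) and without MP bipolar replicate 2 (-0.94, adjusted p = 0.0755), although the fold change hardly moved.

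The annotated starts of the 2 genes are shown because they are the pair called in opposite directions, as the 250 bases upstream of each (RefSeq, GRCm38.p6), with CCAAT boxes and GC boxes (GGGCGG), on either strand, in capitals. CCAAT is present in 33.8% and GGGCGG in 32.7% of all windows of this length. Rorb start 1 lies in a window with 66.0% G and C and holds 1 CCAAT and 2 GGGCGG matches. Rorb start 2 has 39.2% G and C, 4 CG dinucleotides and none of the motifs, and the Rora window has 61.2% G and C, 26 CG dinucleotides and none of the motifs. None of the 3 windows holds AGGTCA. Which start each probe set reports on was not examined.
Rorb start 1, chr19:19111197-19111446, minus strand: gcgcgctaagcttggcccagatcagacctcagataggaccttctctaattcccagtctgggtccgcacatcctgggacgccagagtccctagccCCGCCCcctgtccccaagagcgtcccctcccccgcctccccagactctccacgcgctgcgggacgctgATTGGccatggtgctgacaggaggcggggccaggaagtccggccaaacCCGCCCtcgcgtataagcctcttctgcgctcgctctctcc
Rorb start 2, chr19:19001118-19001367, minus strand: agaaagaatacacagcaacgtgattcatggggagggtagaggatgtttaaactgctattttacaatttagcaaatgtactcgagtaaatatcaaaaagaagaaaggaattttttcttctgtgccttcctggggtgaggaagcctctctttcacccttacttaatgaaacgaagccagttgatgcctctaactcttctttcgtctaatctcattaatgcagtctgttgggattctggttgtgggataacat
Rora, chr9:68653536-68653785, plus strand: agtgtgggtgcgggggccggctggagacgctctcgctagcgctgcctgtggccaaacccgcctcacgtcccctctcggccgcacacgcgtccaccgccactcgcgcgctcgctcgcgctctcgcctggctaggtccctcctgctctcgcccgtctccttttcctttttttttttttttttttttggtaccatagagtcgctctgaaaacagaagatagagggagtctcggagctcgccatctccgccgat

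**Figure D2:**
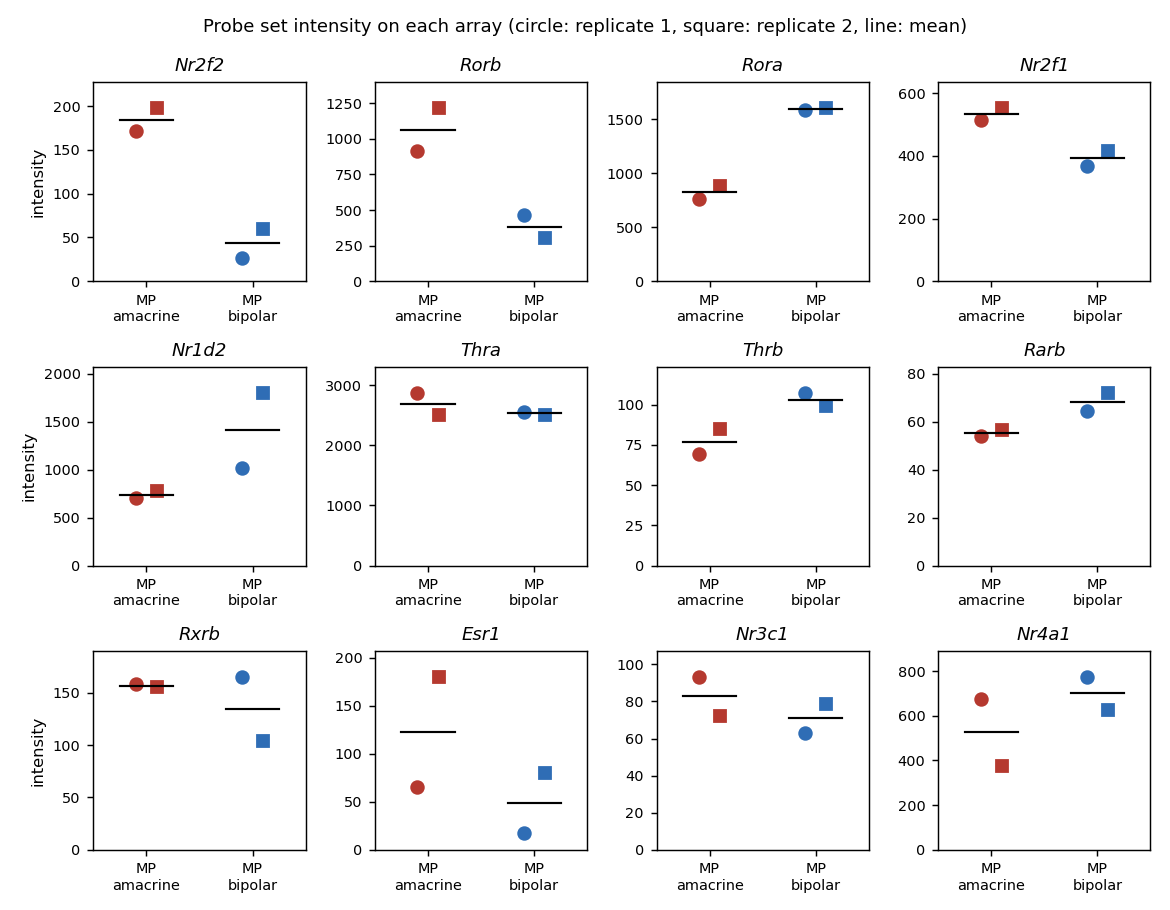
Probe set intensity (linear scale, y axes from 0, scaled per gene) of 12 receptors on each array, with MP amacrine at the left in red and MP bipolar at the right in blue; circles are replicate 1, squares replicate 2 and lines group means (n = 2). Nr2f2 and Rorb stand higher in MP amacrine cells, Rora stands higher in MP bipolar cells, and in Nr1d2 and Esr1 the replicates of a group lie far apart.

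The Rev-erb receptors Nr1d1 and Nr1d2 are repressors that compete with Ror proteins for the same sites and form a feedback loop of the circadian clock. Nr1d2 had intensities of 703 and 776 on the MP amacrine arrays, against 1021 and 1806 on the MP bipolar arrays. Both bipolar arrays were higher, but they differed widely from each other, and the log2 fold change of -0.87 did not pass the test (SE 0.27, adjusted p = 0.0815, limma). It was -1.27 without MP bipolar replicate 1 (adjusted p = 0.0170) and -0.46 without MP bipolar replicate 2 (adjusted p = 0.514), so its size rests on the brighter bipolar array. Nr1d1 was too dim, at 36.2 and 21.9 in MP amacrine cells and 28.7 and 60.6 in MP bipolar cells, again highest in MP bipolar replicate 2. The other Nr1d2 probe set was below the filter, at 6.88 to 11.5 over all arrays. The window before the start of Nr1d2 (RefSeq, GRCm38.p6) is shown because, unlike those of the 3 called genes, it contains an AGGTCA match, 77 bases before the start, in capitals with 1 CCAAT and 3 GGGCGG matches. Over the 39 members with a listed start, 11 of 60 windows (18.3%) held AGGTCA, against 14% of all windows. Over the tested members with a listed start, 4 of 32 windows (12.5%) held it.
Nr1d2, chr14:18239107-18239356, minus strand: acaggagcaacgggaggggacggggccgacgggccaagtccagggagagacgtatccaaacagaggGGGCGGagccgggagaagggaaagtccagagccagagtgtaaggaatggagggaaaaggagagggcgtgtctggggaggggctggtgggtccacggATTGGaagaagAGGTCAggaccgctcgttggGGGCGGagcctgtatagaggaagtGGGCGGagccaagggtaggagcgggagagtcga

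Among 13 tested clock partners of the Rev-erb and Ror receptors, 3 were called, all in the bipolar direction, with a median log2 fold change of -0.43. That is 23.1% of the list, where 6.92% of all tested genes were called in that direction and 13.5% in either. Dbp, a clock-controlled transcription factor, had 105 and 68.6 in MP amacrine and 352 and 474 in MP bipolar cells (-2.07, SE 0.27, adjusted p = 0.00164, limma). The period gene Per3 had 77.8 and 51.4 in MP amacrine and 218 and 459 in MP bipolar cells (-2.07, SE 0.35, adjusted p = 0.00617, limma), while the 5 probe sets above the filter ran from -2.07 to 0.04 and the average over its probe sets was -0.82. The cryptochrome gene Cry2 had 263 and 189 in MP amacrine and 438 and 519 in MP bipolar cells (-1.04, SE 0.25, adjusted p = 0.0287, limma). Its call was lost without MP amacrine replicate 2 and without either bipolar replicate (adjusted p = 0.10, 0.0848 and 0.199). Arntl and Clock, activators of the loop, gave -0.01 and -0.30 and did not pass. Npas2 and Ciart had positive values and did not pass either. Npas2 had 330 and 244 in MP amacrine and 153 and 178 in MP bipolar cells (0.73, adjusted p = 0.0955, limma), and Ciart gave 0.34. The sources used here do not state the time of day of collection.

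The thyroid hormone receptors were expressed without a called difference. Thra had high signal on every array, 2876 and 2502 in MP amacrine cells and 2554 and 2506 in MP bipolar cells, and the groups overlapped. Its log2 fold change was 0.08 with a 95% interval of -0.21 to 0.38, the narrowest of the tested receptors, while its 2nd brightest probe set gave -0.16. Thrb had 69.2 and 85.1 in MP amacrine and 108 and 99.0 in MP bipolar cells (-0.36, adjusted p = 0.355, limma). Of 8 tested genes of thyroid hormone supply and response, 1 was higher in each population (25% in all, against 13.5% of all tested genes). The median was 0.38, but -0.49 with all probe sets averaged (5 genes tested), -0.20 with the 2nd brightest probe set, -1.43 with the 75th percentile filter (2 genes tested), 0.23 without MP amacrine replicate 2 and 0.12 without MP bipolar replicate 1, so it had no stable direction. Klf9, a transcription factor induced by both thyroid hormone and glucocorticoids, had 1350 and 1441 in MP amacrine and 2695 and 3460 in MP bipolar cells (-1.12, SE 0.16, adjusted p = 0.00256, limma), and all 5 of its probe sets above the filter had negative values. Crym, which encodes a thyroid hormone-binding protein, had 77.0 and 97.7 in MP amacrine and 22 and 45.7 in MP bipolar cells (1.09, adjusted p = 0.0367, limma). The Crym call was lost when MP amacrine replicate 2 was left out (adjusted p = 0.149) and when MP bipolar replicate 1 was left out (0.74, adjusted p = 0.233).

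No retinoid receptor gene passed the test. Of the 3 retinoic acid receptor genes Rarb alone was tested, with 54.1 and 56.4 in MP amacrine and 64.3 and 72.1 in MP bipolar cells (-0.24, adjusted p = 0.545, limma). Rara and Rarg did not exceed 41.1 on any array. Of the retinoid X receptor genes, whose products pair with many other members, Rxrb had 158 and 155 in MP amacrine and 165 and 104 in MP bipolar cells, and Rxra had 67.6 and 57.2 against 53.4 and 41.9. Neither passed (0.23, adjusted p = 0.660, and 0.30, adjusted p = 0.455, limma), and Rxrg stayed between 16.2 and 18.6. The list of retinoic acid supply and response had 14 genes on the table, of which 9 were too dim, and 4 of the 5 tested genes were called in the amacrine direction, where 6.54% of all tested genes were. Its median log2 fold change was 3.10 over the 5 tested genes, 0.13 over all 14 genes without the filter, and 1.21 over 4 genes without cross-matching probe sets. These were Crabp1, a retinoic acid carrier (5.60), Meis2 (3.32) and Meis1 (2.13), homeobox genes that respond to retinoic acid, and Aldh1a1, an enzyme that makes it (3.10), with adjusted p of 1.85e-05 to 6.30e-04 (limma). Other probe sets of the homeobox genes gave smaller values, 1.19 to 2.93 for Meis2 and 0.33 and 1.23 for Meis1. Aldh1a1, at 180 and 146 in MP amacrine cells and 4.62 and 4.86 in MP bipolar cells, passed the filter through the amacrine arrays alone.

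Steroid receptor genes were dim or variable. Esr1, the oestrogen receptor alpha gene, had 65.7 and 180 in MP amacrine cells and 17.2 and 79.7 in MP bipolar cells. The groups overlapped and replicate 2 was the higher array in each, and the log2 fold change of 1.17 had a 95% interval of -0.08 to 2.41 (adjusted p = 0.233, limma). Without MP bipolar replicate 2 it was 1.93 and passed (adjusted p = 0.0388), and without MP bipolar replicate 1 it was 0.40. The other Esr1 probe sets were below the filter, at 15.1 to 20.6 and 2.64 to 17.1 over all arrays, with log2 fold changes of 0.06 and 0.62. The glucocorticoid receptor gene Nr3c1 had 93.3 and 72.2 in MP amacrine and 63.1 and 78.8 in MP bipolar cells (0.18, adjusted p = 0.700, limma). Esr2, Nr3c2 (the mineralocorticoid receptor gene) and Pgr (the progesterone receptor gene) were too dim. Nr3c2 was low on every array, at 3.18 and 3.83 in MP amacrine and 13.2 and 10.3 in MP bipolar cells.

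Among 14 tested glucocorticoid response genes, 2 were higher in MP amacrine cells and 1, Klf9, was higher in MP bipolar cells, with a median of 0.15. The called share was 21.4%, against 13.5% of all tested genes. The kinase gene Sgk1 had 781 and 720 in MP amacrine and 61.5 and 45.9 in MP bipolar cells (3.47, SE 0.23, adjusted p = 5.60e-05, limma). The metallothionein gene Mt1 had 204 and 386 in MP amacrine and 63.0 and 74.6 in MP bipolar cells (1.82, SE 0.30, adjusted p = 0.00568, limma). The oestrogen-related receptors, orphan regulators of mitochondrial genes, showed no called member of 3 tested. Esrrg had 174 and 140 in MP amacrine and 130 and 88.6 in MP bipolar cells (0.48, adjusted p = 0.290), Esrra had 119 and 107 against 77.0 and 95 (0.34, adjusted p = 0.387), and Esrrb had 86.6 and 38.6 against 86.7 and 65.2 (-0.29, adjusted p = 0.658, limma). With all Esrrg probe sets averaged, its log2 fold change was 0.68 and passed (adjusted p = 0.0467).

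Receptors that sense lipids and sterols were mostly below the filter. Of 7 genes of the Ppar, Lxr, Fxr, vitamin D and Car receptors on the table, Ppard was tested, and it passed the filter through the bipolar arrays alone. Its intensities were 28.3 and 25.2 in MP amacrine and 53.1 and 46.9 in MP bipolar cells (-0.63, SE 0.20, adjusted p = 0.0870, limma). It was the member closest above the filter, with bipolar array medians of 45.8 and 44.5, and Nr5a2, at 44.9 and 45.4 in MP amacrine cells with array medians of 44.5 and 47.2, lay just below it. Ppara, Nr1h3 (Lxr alpha), Nr1h4 (Fxr), Vdr (the vitamin D receptor gene) and Nr1i3 (Car) were too dim, at 2.37 to 44.5 over all arrays. Pparg was at or near the lowest values of the table, from 1 to 1.52. Of 19 tested response genes of these receptors, 2 were called in the amacrine and 1 in the bipolar direction, with a median of 0.05. The called share was 15.8%, close to the 13.5% of all tested genes. Fabp3 (2.56, adjusted p = 0.00136) and Mylip, an Lxr-induced ubiquitin ligase (2.54, adjusted p = 6.67e-04), stood against Fabp7, a fatty acid carrier (-1.25, adjusted p = 6.36e-04, limma). Fabp3 had 193 and 89.4 in MP amacrine cells and 10.9 and 7.64 in MP bipolar cells, so it too passed the filter through the amacrine arrays alone.

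The Nr4a receptors are orphan members induced within minutes by activity or stress, along with other immediate early genes. Nr4a1 had 674 and 377 in MP amacrine cells and 775 and 626 in MP bipolar cells. The groups overlapped and the amacrine arrays were far apart (-0.45, adjusted p = 0.421, limma). Nr4a2 had 138 and 142 in MP amacrine and 116 and 114 in MP bipolar cells (0.25, adjusted p = 0.537, limma), and Nr4a3 was too dim. The list of other immediate early genes had 13 tested members. Of these, 4 were called in the amacrine and 1 in the bipolar direction (38.5% in all, against 13.5% of all tested genes). The median was 0.39, and it was 0.74 and 0.23 without MP amacrine replicate 1 and 2, and 0.77 and 0.29 without MP bipolar replicate 1 and 2. Ier5 had 4479 and 4271 in MP amacrine and 460 and 548 in MP bipolar cells (3.08, adjusted p = 2.19e-05). Ier2 (1.87, adjusted p = 0.00641), Fos (1.60, adjusted p = 0.0465) and Ier3 (1.46, adjusted p = 0.0172) were the others, and Btg2 (-1.46, adjusted p = 0.00504, limma) went the other way. Fos had 1628 and 2894 in MP amacrine and 1131 and 436 in MP bipolar cells, and its call was lost in 12 of 18 alternative fits, among them those without MP amacrine replicate 2 (1.19, adjusted p = 0.203) and without MP bipolar replicate 2 (0.93, adjusted p = 0.151). The calls of Ier3 and Btg2 were lost without MP bipolar replicate 2 (adjusted p = 0.107 and 0.0534).

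No difference was called among the remaining orphan receptors. Nr2c2, which encodes the testicular orphan receptor Tr4, was bright on all arrays, with 2068 and 1902 in MP amacrine and 1950 and 1714 in MP bipolar cells (0.12, 95% interval -0.22 to 0.45, adjusted p = 0.704, limma). Its partner Nr2c1, encoding Tr2, had 292 and 332 in MP amacrine and 208 and 250 in MP bipolar cells (0.42, adjusted p = 0.313, limma). The probe sets of Nr2c1 above the filter ranged from -0.23 to 0.42, and those of Nr2c2 from -0.40 to 0.12. Hnf4a, Nr5a1 and Nr6a1, known from liver, steroid-producing glands and germ cells, lay between 57.5 and 114 on all arrays and did not pass (0.14, -0.29 and -0.10). The brightest Hnf4a probe set, used here, was of the cross-matching kind. The 2nd brightest Hnf4a probe set had 33.7 to 51.1 over all arrays, and the remaining ones were below the filter, at 2.89 to 12.6. Nr0b1, which encodes the repressor Dax1, was too dim, at 9.22 to 13.7. Over all 18 receptors below the filter, intensities ran from 1 to 65.1, and since the table has no detection calls, these values do not show that a gene is silent. Of the 20 tested receptors that did not pass, 14 had a 95% interval for the log2 fold change within -1 to 1.

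Different probe sets of a receptor did not always give the same direction. Of the 23 tested members, 12 had another probe set above the filter, and in 5 of the 12 no probe set above the filter had the opposite sign. Nr2f2 and Rorb were among the 5, and Rora was among the 7 with mixed signs.

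**Figure D3:**
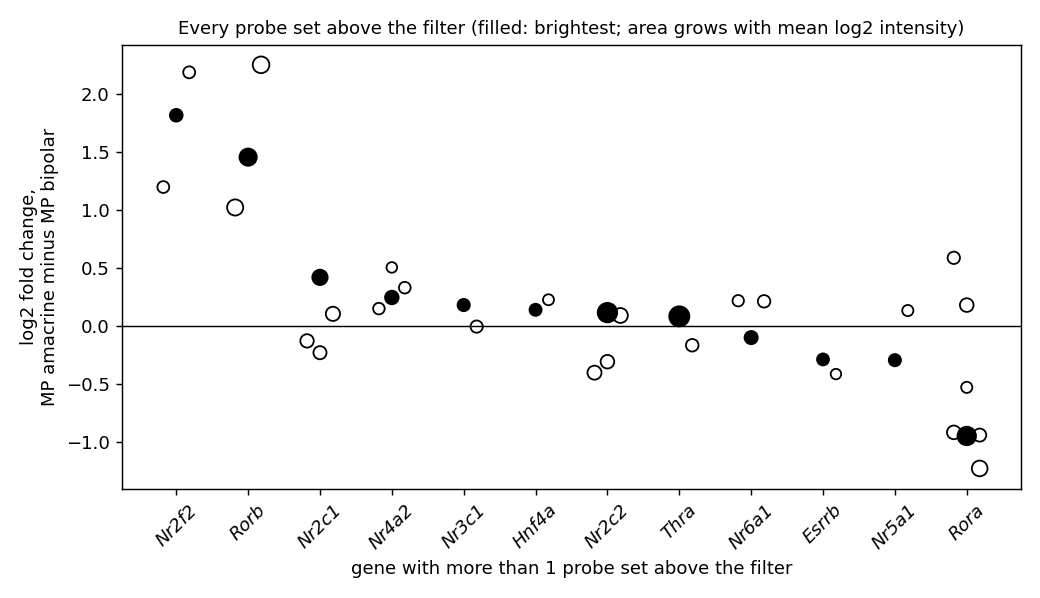
Log2 fold change (MP amacrine minus MP bipolar, y axis) of every probe set above the filter for the 12 receptors that have more than 1 (x axis); filled circles are the brightest probe set of the gene and circle area grows with mean log2 intensity. All 3 Nr2f2 and all 3 Rorb probe sets lie above 0, and of the 7 Rora probe sets 5 lie below 0 and 2 above it.

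Of the coregulators through which nuclear receptors act, 20 of 21 coactivators and all 15 corepressors on the table were tested, and they were called no more often than the 13.5% of all tested genes. Of the 20 coactivators, 2 (10%) were called, both in the amacrine direction, with a median of -0.09. Ppargc1a, a coactivator of mitochondrial genes that works with oestrogen-related and Ppar receptors, had 246 and 402 in MP amacrine and 62.9 and 86.9 in MP bipolar cells (1.88, SE 0.28, adjusted p = 0.00349, limma). All 4 of its probe sets above the filter were positive, at 0.25 to 1.88, but with all of its probe sets averaged the call was lost (adjusted p = 0.0528). Ncoa7, an oestrogen receptor coactivator, had 574 and 665 in MP amacrine and 210 and 234 in MP bipolar cells (1.42, SE 0.22, adjusted p = 0.00410, limma). Of the 15 corepressors, 1 (6.67%) was called, in the bipolar direction, with a median of -0.13. It was Ctbp2, with 2733 and 2408 in MP amacrine and 4432 and 4571 in MP bipolar cells (-0.81, SE 0.11, adjusted p = 0.00215, limma), a gene that also encodes the ribbon synapse protein Ribeye. Nrip1, a ligand-dependent corepressor, gave -0.57 (adjusted p = 0.187) and Hdac3, the deacetylase of a receptor corepressor complex, gave -0.07 (adjusted p = 0.891, limma).

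**Figure D4:**
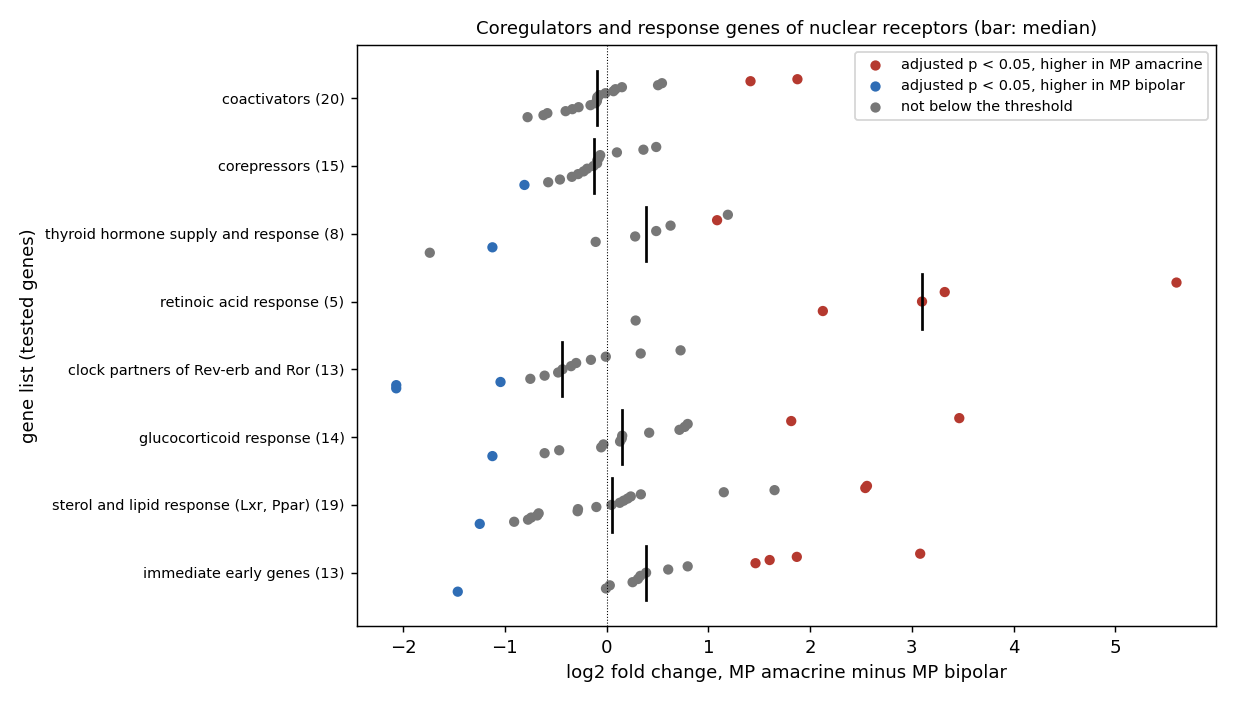
Log2 fold change (MP amacrine minus MP bipolar, x axis) of each tested gene in 8 lists of coregulators and response genes (rows, number of tested genes in brackets), coloured by direction where the adjusted p was under 0.05, with a bar at each median. The retinoic acid list has its median at 3.10 with 4 of 5 tested genes called (0.13 over all 14 genes without the filter), the clock list at -0.43 with 3 of 13 called, and the coregulator lists lie around 0. Over all tested genes, 13.5% were called.

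Some markers of other cells also differed between the 2 sorts, where 13.5% of all tested genes were called in either direction. Of 10 tested photoreceptor markers, 2 were higher in MP amacrine cells, Gnat2 (adjusted p = 0.00925) and Rp1 (adjusted p = 0.0418), and 1, Crx (-0.97), in MP bipolar cells. The rod gene Nrl had 2028 and 1172 in MP amacrine and 891 and 850 in MP bipolar cells (0.81, adjusted p = 0.0844, limma), while Prph2 stayed at or below 4.37. The brightest of the list, Sag and Gngt1, had 2422 to 3336 and 1983 to 4138 over all arrays and did not pass. Opn1sw gave -1.74 and did not pass (adjusted p = 0.0621, limma). Of 7 tested Müller glia markers, 3 were higher in MP amacrine cells, led by Vim (3.19), with 1672 and 1518 in MP amacrine and 108 and 233 in MP bipolar cells. Glul, the brightest of the list, gave 0.17 and Clu gave -0.84, and neither passed. Sox9, Aqp4, Hes1 and Kcnj10 were too dim. Of 3 tested horizontal cell markers, 1 was higher in MP amacrine cells, Tfap2b (3.64), which amacrine cells also express. Of 3 tested markers of Notch signalling and dividing progenitors, 2 were higher in MP amacrine cells, Hes5 (3.19) and Ccnd1 (1.52). Of 6 tested ganglion cell markers, 1, Thy1 (-1.41), was higher in MP bipolar cells, but the median of the 6 was 0.69. Pou4f1 had 157 and 88.8 in MP amacrine and 60.3 and 36.8 in MP bipolar cells (1.08, adjusted p = 0.0528, limma). Nefl gave 2.23 and Isl2 -0.05, and neither passed. Of 7 microglia, vessel and red cell markers Pdgfrb (1.89) and Csf1r (1.11) were higher in MP amacrine cells. Tfap2b, Hes5, Pdgfrb and the Müller glia gene Slc1a3 were below the median on both bipolar arrays and passed the filter through the amacrine arrays alone. Nefm was at 1631 and 136 on the amacrine arrays, so single libraries differed in such signal. The part of these cells in the Rorb, Nr2f2 and Rora values was not tested.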

How the data were processed

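RNA of 2 MP amacrine and 2 MP bipolar samples was labelled with biotin and hybridised to Affymetrix arrays, per the labels' protocols. The authors deposited linear intensities for 45101 probe sets; the sources used here do not state how they were summarised or scaled. Array medians lay between 44.5 and 47.2, so values were used as deposited. The 64 control probe sets, 932 with several genes and 9160 with none were left out, and 34945 probe sets with 1 gene remained. Genes were fitted with limma 3.58.1 in R 4.3.3 (lmFit, eBayes with intensity trend, 2 residual degrees of freedom) on log2(intensity + 16), two-sided, Benjamini-Hochberg adjusted over 11583 tested genes, threshold 0.05. The fit was tested on simulated data. Named were all receptors and up to 4 called genes of each of 8 lists. Btg2, Arntl, Clock, Npas2, Ciart, Nrip1, Hdac3 and some markers were added after their values were seen. Receptors, lists and tests were chosen with earlier results of these data known. Same-numbered samples did not deviate together across genes (r = -0.04), so no pairing was used.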

Additional observations from a re-analysis of the deposited data

How the results depend on the processing

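Across scaling (quantile, loess, median), pseudocounts of 1 and 64, variance moderation and array quality weights (the last chosen after seeing the data), Nr2f2, Rorb and Rora were called each time. Receptors higher in MP amacrine cells numbered 0 without the filter (limma; 5 at an unadjusted p under 0.05), where more genes are tested. Receptors higher in MP bipolar cells numbered 0 with all probe sets averaged (limma; 1 at an unadjusted p under 0.05) and with an added 2-fold minimum (3 at an unadjusted p under 0.05), 3 at an adjusted p under 0.10, and 0 to 1 with each replicate left out (0 without MP bipolar replicate 2, 2 at an unadjusted p under 0.05). Over all genes, 1559 calls became 785 without the filter, 830 with the 2nd brightest probe set, 883 at an adjusted p under 0.01, and 917 to 1939 with each replicate left out, lowest without MP bipolar replicate 2. With the replicate block 2 receptors were higher in MP bipolar cells, Nr1d2 being added, and Esr1 was added in the amacrine direction; the labels do not say that a number marks a shared litter.

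Of the 3 called receptors, 56 of 63 alternative fits kept the call and 7 lost it, with no change of direction. The filter, trend, moderation, threshold, block and weight settings reuse the same fold change. In those fits, also counted below, no change of direction was possible. For genes with 1 probe set, the averaged and 2nd brightest settings reuse it as well. Of the 20 not called, 11 of 396 fits changed direction, all without passing. With the 2nd brightest probe set these were Nr3c1 (-0.0039, the same without cross-matching probe sets), Nr5a1 (0.13), Nr6a1 (0.21) and Thra (-0.16), and with all probe sets averaged Nr2c2 (-0.12) and Nr6a1 (0.097). With each replicate left out Esrrb ran from -0.74 to 0.17, Nr5a1 from -0.60 to 0.011, Rxrb from -0.069 to 0.53 and Thra from -0.016 to 0.18. Of 387 fits of the 22 named genes of other lists, 30 lost the call and none changed direction. Without MP amacrine replicate 1, calls in the amacrine and bipolar directions were 3 and 1 for coactivators, 4 and 1 for glucocorticoid response and 3 and 2 for sterol and lipid response; without MP amacrine replicate 2 they were 0 and 2 for corepressors. Where not stated, the cause was not tested. A lone remaining array was taken to have the spread of the other group. No detection calls were used, so the arrays do not settle which dim receptors are absent.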
